A study of Homo sapiens with 16 samples.

Results

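The genes described here are the ID family (ID1, ID2, ID3 and ID4), the inhibitory SMADs SMAD6 and SMAD7, the ligands BMP4, BMP7 and TGFB1, and the decoy receptor BAMBI. They were chosen by name, with earlier results of these data known, and all 10 were found among the 27037 genes of the count table. Their mRNA was followed in SK-N-BE(2)C, an established human neuroblastoma line with amplified MYCN and an adrenergic identity. The cells were given DMSO (vehicle), all-trans retinoic acid at 10 µM (RA), the CDK4/6 inhibitor palbociclib at 1 µM (PB) or both together (PB+RA) for 5 days, with 4 replicates of each. All groups come from a single cell line, and the replicates are separate platings of it at different passages. The comparisons ask how CDK4/6 inhibition and the retinoid, alone and together, change this signalling axis.

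ID proteins carry a helix-loop-helix domain without a DNA-binding region. They bind E proteins and so keep these from pairing with tissue-restricted basic helix-loop-helix (bHLH) factors on E-box DNA, and they are known for holding progenitor cells in an undifferentiated state. BMP ligands raise ID transcription through receptor kinases that phosphorylate SMAD1, SMAD5 and SMAD9, whereas TGF-beta and activins act through SMAD2 and SMAD3. SMAD6, SMAD7 and BAMBI are induced by the same pathways and restrain them. In the developing sympathetic nervous system, BMPs induce transcription factors, the HAND genes among them, that neuroblastoma cells go on expressing.

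Libraries held 19.5 to 31.6 M counts. All 9 neuroblastoma markers examined, PHOX2A, MYCN and CHGA among them, averaged at least 1 CPM (a count scaled to its library's total), while the defining Schwann cell gene SOX10 and the immune and endothelial genes PTPRC and PECAM1 stayed at or below 0.285 CPM in every library. In RNA from a bulk culture, fewer cells that express a gene and less RNA of it per cell cannot be told apart.

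To place the ID genes and their feedback partners beside the letters that SMADs and bHLH factors are known to recognise, the 250 bases upstream of the annotated start were searched for the palindromic SMAD1/5 element GGCGCC, the SMAD box GTCTG and the E-box CANNTG on both strands. Of 35116 RefSeq promoters (GRCh38.p14), 16.4% held GGCGCC, 38.0% held GTCTG and 61.8% held CANNTG in this window. The retinoid motif AGGTCA was searched for as well, and 12.1% of these promoters held it. A further motif, the palindromic SMAD-binding element GTCTAGAC, was added after the sequences had been seen and was present in 0.182% of promoters. The following are the windows of the 3 abundant ID genes, whose mean level was below that of DMSO in RA, and of SMAD6 and BAMBI, the feedback genes that were called lower, with matches in capitals. They lie at chr20:31605039-31605288 (plus strand) for ID1, chr2:8681806-8682055 (plus) for ID2, chr1:23559502-23559751 (minus) for ID3, chr15:66701986-66702235 (plus) for SMAD6 and chr10:28677271-28677520 (plus) for BAMBI, and each is written 5′ to 3′ on the strand of its gene.
ID1: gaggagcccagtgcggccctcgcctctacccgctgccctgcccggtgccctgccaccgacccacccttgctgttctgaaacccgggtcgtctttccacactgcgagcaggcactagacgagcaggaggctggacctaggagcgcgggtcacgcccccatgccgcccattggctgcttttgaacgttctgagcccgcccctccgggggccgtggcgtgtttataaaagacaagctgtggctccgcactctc
ID2: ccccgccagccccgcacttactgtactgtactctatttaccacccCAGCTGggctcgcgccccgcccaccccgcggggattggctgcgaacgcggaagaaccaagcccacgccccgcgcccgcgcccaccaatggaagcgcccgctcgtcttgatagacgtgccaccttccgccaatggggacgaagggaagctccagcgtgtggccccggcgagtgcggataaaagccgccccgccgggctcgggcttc
ID3: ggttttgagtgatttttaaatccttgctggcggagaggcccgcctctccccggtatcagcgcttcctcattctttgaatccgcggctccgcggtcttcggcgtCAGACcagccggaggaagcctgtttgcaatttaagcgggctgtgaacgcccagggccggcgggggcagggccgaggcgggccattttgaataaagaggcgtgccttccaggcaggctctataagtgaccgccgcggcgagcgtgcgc
SMAD6: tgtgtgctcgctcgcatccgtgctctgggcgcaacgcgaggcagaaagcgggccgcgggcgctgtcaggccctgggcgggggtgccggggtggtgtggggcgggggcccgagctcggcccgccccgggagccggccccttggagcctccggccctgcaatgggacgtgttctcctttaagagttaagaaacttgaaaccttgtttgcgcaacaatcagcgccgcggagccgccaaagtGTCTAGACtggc
BAMBI: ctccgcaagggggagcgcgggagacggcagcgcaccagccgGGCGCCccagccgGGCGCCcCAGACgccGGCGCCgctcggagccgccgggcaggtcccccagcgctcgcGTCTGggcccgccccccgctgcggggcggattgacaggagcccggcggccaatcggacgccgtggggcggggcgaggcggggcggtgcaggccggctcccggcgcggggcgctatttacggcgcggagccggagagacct
ID1 held no match to any of these letters in the window. ID2 held 1 E-box (CAGCTG) and ID3 held 1 SMAD box, read as CAGAC on the strand shown. SMAD6 held GTCTAGAC from 12 to 5 bases before its start. BAMBI held 3 copies of GGCGCC and 2 SMAD boxes. The 5 windows shown held no AGGTCA. Windows of ID4, SMAD7, BMP4 and TGFB1 were searched too but are not shown. SMAD7 held 2 SMAD boxes at start 1, 1 at start 2 and 0 at start 3. Start 3 of SMAD7 also held AGGTCA, read as TGACCT, the only match to it among the members searched. ID4 and BMP4 held matches to other motifs, and TGFB1 held none. The windows differed in the letters they held, and sequence outside the 250 bases was not searched. On average the 5 genes were lower in RA than in DMSO, with ID1 and BAMBI not called there. A link between these letters and the changes was not tested. A match is a description of the letters and was not tested as a binding site.

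In DMSO the members spanned a wide range of expression. Per kilobase of annotated exon, ID3 stood at 92.1 ± 8.94 CPM (SD, n = 4 here and below), ID1 at 78.2 ± 15.3, TGFB1 at 66.2 ± 5.48 and ID2 at 65.5 ± 7.45, and each of these overlapped its neighbour in the order. BAMBI followed at 23.8 ± 2.99, SMAD6 at 5.48 ± 1.11 and SMAD7 at 3.61 ± 0.397 CPM per kilobase, with no overlap between neighbours. ID4 (0.544 ± 0.139) and BMP4 (0.325 ± 0.283) overlapped, and BMP7 was lowest at 0.0457 ± 0.0305. ID1, ID2 and ID3 thus supplied nearly all ID mRNA, and ID4 made up 0.232% ± 0.0568 of the family's sum per kilobase.

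Genes were called changed at an adjusted p below 0.05 with an absolute log2 fold change above 0.5, over 15415 tested genes. BMP7 was too low to be tested, which left 9 members. With RA, 1 member was called higher (background 10.8% of all tested genes) and 3 lower (background 2.54%), and the median log2 change of the 9 members was −0.46 against 0.01 for all tested genes. With PB, 2 members were called, both lower (background 11.3% lower, 16.9% higher), with a median of −0.39 against 0.03. With PB+RA, 3 were called, all lower (background 17.9% lower, 24.0% higher), with a median of −0.21 against 0.04. Called members were therefore mostly lower ones, and the members did not all move together.

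**Figure D1:**
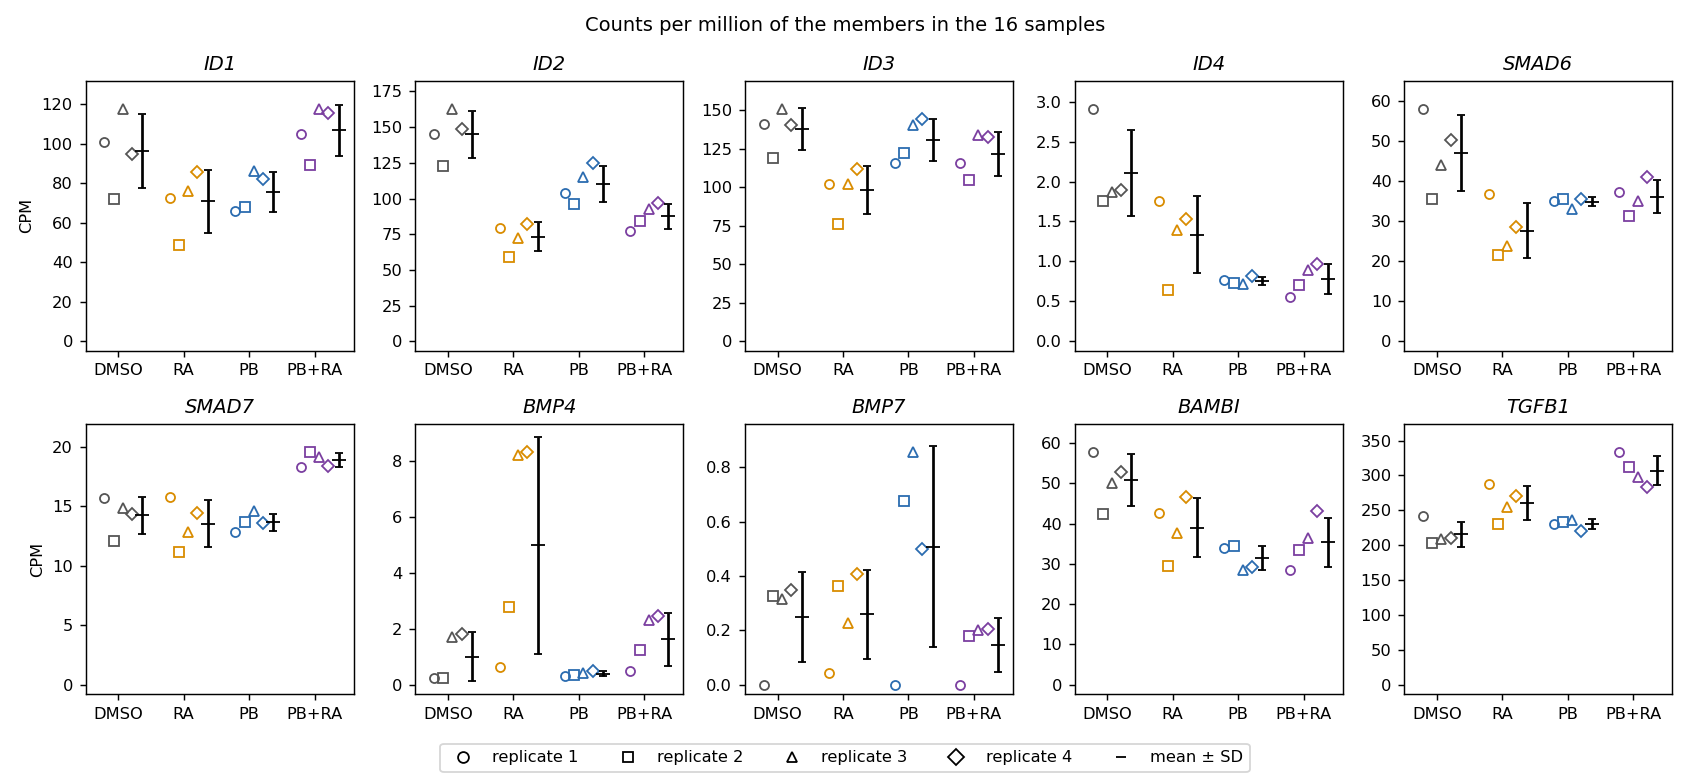
CPM (y axis, from about 0 in each panel) of the 10 members in the 16 samples, by group (x axis). Open symbols are replicates 1 to 4 and black bars the mean ± SD of the group. ID2 lies lower in every RA sample than in any DMSO sample, SMAD7 lies highest in PB+RA, and BMP4 parts replicates 1 and 2 from replicates 3 and 4 in DMSO.

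ID2 (chromosome 2, 8818975 to 8824591, plus strand, GRCh37) showed the clearest response of the family. Replicates 1 to 4 held 145, 123, 163 and 149 CPM in DMSO, 79.0, 59.4, 72.5 and 82.0 in RA, 104, 96.4, 115 and 125 in PB, and 77.2, 84.2, 92.6 and 96.5 in PB+RA. Every RA and every PB+RA sample lay below every DMSO sample. RA lowered ID2 by a log2 change of −0.99 ± 0.11 (SE, adjusted p = 7.38e-06). The combination gave −0.76 ± 0.11 (adjusted p = 1.52e-05). With PB the log2 change was −0.39 ± 0.11 (adjusted p = 0.00627), under the fold minimum. Exons of ID2 share 145 bases with the antisense gene ID2-AS1, which averaged 5.07 CPM.

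ID1 (chromosome 20, 30193086 to 30194318, plus strand) held 101, 72.1, 118 and 94.9 CPM in replicates 1 to 4 of DMSO, 72.6, 48.8, 76.0 and 85.9 in RA, 66.1, 68.1, 86.3 and 82.2 in PB, and 105, 89.4, 118 and 116 in PB+RA. It was the only ID gene with its highest mean in PB+RA, where every sample lay above every sample of RA and of PB. Against RA alone it was higher in PB+RA by a log2 of 0.58 ± 0.17 (adjusted p = 0.00910), or 1.49-fold. This call was lost without RA replicate 2, the lowest RA library for ID1 (0.41, adjusted p = 0.0278). Relative to DMSO, the log2 change in RA was −0.46 ± 0.17, short of the fold minimum (adjusted p = 0.0465). It was −0.35 ± 0.17 in PB (adjusted p = 0.0925) and 0.12 ± 0.17 in the combination (adjusted p = 0.540).

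ID3 (chromosome 1, 23884417 to 23885992, minus strand) held 141, 119, 151 and 141 CPM in DMSO, 102, 75.8, 102 and 112 in RA, 116, 122, 140.3 and 144 in PB, and 116, 104, 134 and 133 in PB+RA. All RA samples lay below all DMSO samples. Its fall with RA, a log2 of −0.50 ± 0.12 (adjusted p = 0.00358), sat at the fold minimum. The log2 change went to −0.48, −0.497 and −0.41, no longer called, without DMSO replicate 3, DMSO replicate 4 and RA replicate 2. The changes with PB (−0.08 ± 0.12) and with PB+RA (−0.21 ± 0.12) did not pass the test.

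ID4 (chromosome 6, 19837601 to 19842428, plus strand) was rare, and its lowest groups were those given PB. It held 2.91, 1.75, 1.87 and 1.90 CPM in DMSO, 1.76, 0.647, 1.39 and 1.53 in RA, 0.772, 0.726, 0.713 and 0.815 in PB, and 0.557, 0.709, 0.889 and 0.974 in PB+RA, from 233 counts in all in DMSO and 66 in PB. No sample given PB reached the lowest DMSO sample. The log2 change was −1.47 ± 0.27 for PB (adjusted p = 0.000255) and −1.46 ± 0.27 for the combination (adjusted p = 0.000160), and both calls held when any 1 of the 8 libraries was left out. With RA it was −0.67 ± 0.25 (adjusted p = 0.0507), just short of the threshold. It was called with the replicate number as a block (−0.68, adjusted p = 0.0114) and also with DESeq2, limma-voom, RLE size factors, the GC and length correction, a stricter filter on low counts, and without DMSO replicate 2 or RA replicate 1 (adjusted p from 0.0253 to 0.0485).

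Summed per kilobase of exon, the family came to 236 ± 31.5 CPM in DMSO and 156 ± 27.5 in RA, while PB gave 199 ± 22.3 and PB+RA 208 ± 22.8. Every RA library lay below every DMSO library (182 at most against 194 at least). Its makeup also differed by group. ID1 made up 32.9% ± 2.20 of the sum in DMSO, 36.5% ± 2.04 in RA, 30.9% ± 1.04 in PB and 41.7% ± 1.25 when both agents were given. In the same order, ID2 made up 27.8% ± 0.736, 21.3% ± 1.31, 25.1% ± 1.15 and 19.1% ± 1.47. These sums and shares were not tested.

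SMAD6 (chromosome 15, 66994574 to 67075187, plus strand), an inhibitory SMAD that acts mainly on BMP receptors, held 57.9, 35.5, 44.0 and 50.2 CPM in DMSO, 36.8, 21.6, 23.7 and 28.5 in RA, 35.1, 35.6, 33.1 and 35.5 in PB, and 37.2, 31.1, 34.9 and 40.9 in PB+RA. RA replicate 1 was the only RA library that reached the lowest DMSO library. RA lowered SMAD6 by −0.77 ± 0.16 (adjusted p = 0.00132). Its log2 changes of −0.43 ± 0.15 with PB and −0.41 ± 0.15 with the combination (adjusted p = 0.0279 and 0.0285) did not reach the fold minimum. After a correction for GC content and length they were −0.58 and −0.66 and were called, and they were also called without DMSO replicate 2 (−0.57 and −0.55).

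SMAD7 (chromosome 18, 46446223 to 46477335, minus strand), which restrains both TGF-beta and BMP receptors, took another course. It held 15.7, 12.0, 14.9 and 14.4 CPM in DMSO, 15.7, 11.1, 12.8 and 14.4 in RA, 12.8, 13.6, 14.5 and 13.5 in PB, and 18.3, 19.5, 19.2 and 18.4 in PB+RA. The 4 PB+RA samples lay above all 12 others, which overlapped freely. The log2 difference of PB+RA was 0.38 ± 0.10 against DMSO, 0.44 ± 0.10 against PB and 0.46 ± 0.10 against RA (adjusted p = 0.00382, 0.00321 and 0.00116), each under the fold minimum. With either agent alone it was within 0.1 of DMSO, and the 95% interval for RA ran from −0.28 to 0.12.

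BAMBI (chromosome 10, 28966439 to 28971861, plus strand), a membrane protein that resembles type I receptors but lacks the kinase domain, held 57.8, 42.5, 50.1 and 52.9 CPM in DMSO, 42.6, 29.4, 37.6 and 46.5 in RA, 33.9, 34.3, 28.4 and 29.3 in PB, and 28.4, 33.5, 36.4 and 43.0 in PB+RA. All PB samples lay below all DMSO samples, and 1 PB+RA sample overlapped them. BAMBI was lowered by PB (−0.69 ± 0.14, adjusted p = 0.000574) and by the combination (−0.55 ± 0.14, adjusted p = 0.00224), while the change with RA was −0.39 ± 0.14 (adjusted p = 0.0375), under the fold minimum. The value for the combination went to −0.497 without DMSO replicate 1 and to −0.496 without PB+RA replicate 1, no longer called.

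**Figure D2:**
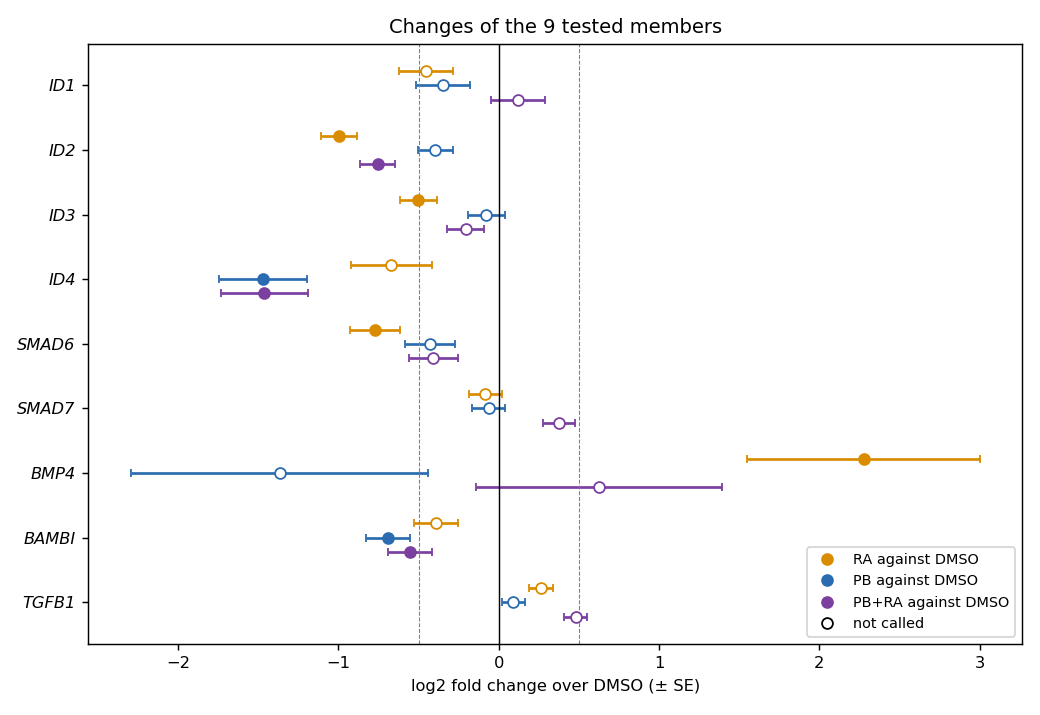
Log2 fold change over DMSO ± SE (x axis) of the 9 tested members (y axis) with RA, PB and PB+RA. Filled points were called, open points were not, and dashed lines mark the fold minimum of 0.5. ID2, ID3 and SMAD6 were called lower with RA, ID4 and BAMBI with PB, and BMP4 was the only member called higher, with the widest error.

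BMP4 (chromosome 14, 54416454 to 54425479, minus strand), a ligand upstream of the ID genes, was scarce and uneven. It held 0.248, 0.245, 1.71 and 1.82 CPM in DMSO, 0.614, 2.79, 8.21 and 8.33 in RA, 0.300, 0.339, 0.428 and 0.498 in PB, and 0.477, 1.24, 2.30 and 2.46 in PB+RA. Replicates 3 and 4 were higher than replicates 1 and 2 in every group, and at each replicate number RA held more than DMSO. RA raised BMP4 by a log2 of 2.28 ± 0.73 (adjusted p = 0.0242), or 4.85-fold, from 114 counts in all in DMSO to 487. The call was lost without DMSO replicate 1, DMSO replicate 2, RA replicate 3 or RA replicate 4, where the log2 change was at least 1.89. In the fit with the replicate block, BMP4 was also called for PB (−1.28, adjusted p = 0.00773), the combination (0.71, adjusted p = 0.0353), PB+RA against PB (1.99, adjusted p = 0.000180) and PB+RA against RA (−1.54, adjusted p = 1.57e-05). Without the block these were −1.37, 0.63, 1.99 and −1.65, with adjusted p of 0.230, 0.489, 0.0971 and 0.0603. The change with PB was not alike across replicates. It was −1.95 in replicates 3 and 4 alone and 0.35 in replicates 1 and 2 alone, where each PB sample held more than the DMSO sample of its number. The block fits a single change for all replicates. The summed level of 6 fibroblast genes, 5 of them at 1 CPM or more on average, moved with RA as well: it was 109 to 162 CPM in DMSO, 167 to 301 in RA, 95.2 to 121 in PB and 113 to 175 in PB+RA, with COL1A2 at or below 0.367 CPM in every library. Its part in the BMP4 result was not tested.

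TGFB1 (chromosome 19, 41807492 to 41859827, minus strand), the most abundant ligand of the set, was highest in PB+RA. It ranged from 203 to 242 CPM in DMSO, 229.9 to 287 in RA, 219.8 to 237 in PB and 284 to 334 in PB+RA, so that all PB+RA samples lay above all DMSO and all PB samples. The log2 difference of PB+RA from DMSO was 0.48 ± 0.07 (adjusted p = 2.02e-05), just under the fold minimum, and it was called without DMSO replicate 1 (0.53) and without PB+RA replicate 4 (0.51). Its exons share 215 bases with HNRNPUL1 on the opposite strand, which averaged 413 CPM against 253 for TGFB1, so the TGFB1 counts are uncertain.

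BMP7 (chromosome 20, 55743809 to 55841697, minus strand) held no more than 18 counts in any library. It was at 0 counts in replicate 1 of DMSO, PB and PB+RA, where a count of 0 allows up to 0.106, 0.129 and 0.119 CPM, and at 1 count in replicate 1 of RA. The other 12 libraries held 4 to 18 counts. It stayed below the filter on low counts in the fit of all samples. In 2 alternatives that included it, BMP7 was called lower in PB+RA than in PB, with a log2 difference of −1.73 in replicates 3 and 4 alone (adjusted p = 0.0161) and −2.23 without PB replicate 1 (adjusted p = 0.0288). With DESeq2 and without the filter that difference was −1.84 and −1.80 and did not pass (adjusted p = 0.143 and 0.217), nor did it pass with any 1 PB+RA replicate left out (adjusted p from 0.150 to 0.247).

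The combination was next set against PB alone and RA alone, to see what the added drug changed. Relative to PB, 0 of the 9 members were called (background 9.02% higher, 7.27% lower). In that comparison edgeR gave 5 members at an unadjusted p below 0.05 and 4 at an adjusted p below 0.05 with no fold minimum, DESeq2 called 1 member and limma-voom 0. The shares of all tested genes that pass without the fold minimum were not computed. Against RA, ID1 was called higher (background 14.9%) and ID4 lower (background 14.1%). ID4 differed by −0.79 ± 0.28 (adjusted p = 0.0251), with RA replicate 2 inside the range of PB+RA. That call was lost in 5 of 8 fits that left out a library (RA replicates 1, 3 and 4, PB+RA replicates 1 and 2), with log2 values from −1.04 to −0.64.

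The change with RA in the presence of PB was then compared with that in its absence, as the interaction of the agents (the log2 change of PB+RA over PB minus that of RA over DMSO). ID1, ID2, SMAD6 and SMAD7 were called, all with positive values. Of all tested genes, 0.415% were called with a positive interaction and 3.02% with a negative one. The interaction was 0.92 ± 0.24 for ID1 (adjusted p = 0.0346), 0.63 ± 0.16 for ID2 (adjusted p = 0.0255), 0.79 ± 0.22 for SMAD6 (adjusted p = 0.0477) and 0.52 ± 0.15 for SMAD7 (adjusted p = 0.0468). Its median over the 9 members was 0.53, against −0.04 over all tested genes. In each of these genes the change with RA was the lower of the pair when PB was absent. ID1 went from a log2 change of −0.46 with RA to 0.47 when PB was present, ID2 from −0.99 to −0.36, SMAD6 from −0.77 to 0.02 and SMAD7 from −0.08 to 0.44.

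In the fit with the replicate block all 4 interactions stayed called, with adjusted p of 0.000126 for ID1, 9.23e-05 for ID2, 0.00124 for SMAD6 and 0.00713 for SMAD7. Without the block the adjusted p lay closer to the threshold. Leaving out 1 of the 16 libraries in turn in the fit without the block, the ID2 call was kept in 15 fits (lost without DMSO replicate 4, adjusted p = 0.0523), that of ID1 in 8, that of SMAD7 in 5 and that of SMAD6 in 3. The values kept their sign throughout, from 0.79 to 1.07 for ID1, 0.55 to 0.73 for ID2, 0.70 to 0.98 for SMAD6 and 0.45 to 0.62 for SMAD7. The highest adjusted p in those fits was 0.0654 for ID1, 0.0926 for SMAD6 and 0.0811 for SMAD7. BAMBI (0.53 ± 0.20, adjusted p = 0.151), ID3 (0.37 ± 0.16, adjusted p = 0.239) and ID4 (0.68 ± 0.40, adjusted p = 0.410) did not pass the test.

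**Figure D3:**
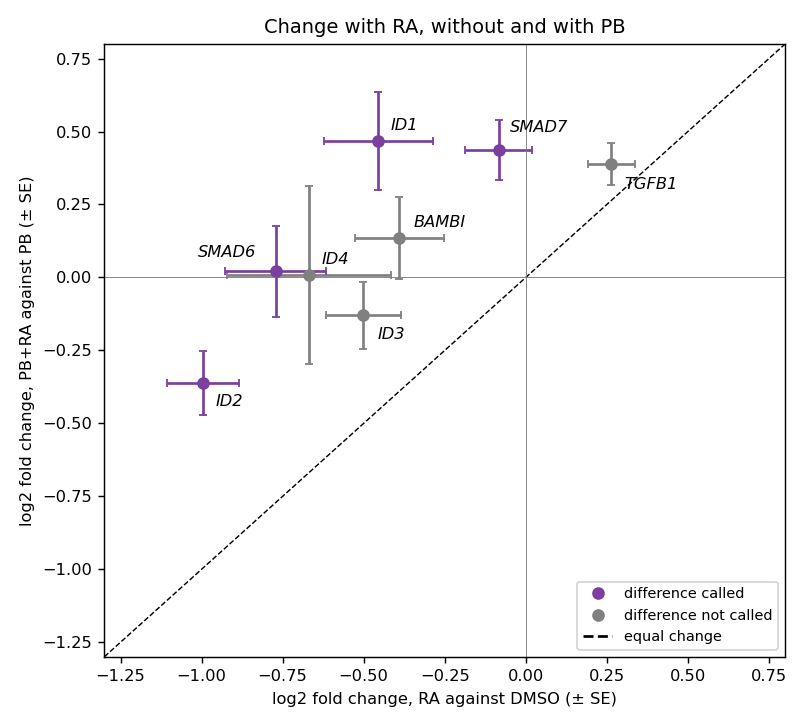
Log2 fold change of RA over DMSO (x axis) against that of PB+RA over PB (y axis), each ± SE, for 8 members. BMP4 is left out for its wide error. All 8 points lie above the dashed line of equal change, and the purple points, ID1, ID2, SMAD6 and SMAD7, are those whose difference was called.

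The wider pathway was followed through lists of ligands, receptors, signalling SMADs, antagonists, modulators, response genes and bHLH partners. These lists hold 109 other genes, of which 99 were in the table and 77 were tested. The 77 include CERS1, a ceramide synthase gene and not a ligand, which entered the ligand list through a match of gene synonyms. With RA, 22 of the 77 were called higher and 6 lower (background 10.8% and 2.54%), with a median log2 change of 0.21 against 0.01 for all tested genes. With PB, 12 were higher and 12 lower (background 16.9% and 11.3%, median −0.02 against 0.03). With PB+RA, 21 were higher and 12 lower (background 24.0% and 17.9%, median 0.08 against 0.04). The same background shares apply to the counts for each list below. Most genes called with RA were higher among the pathway genes and among all tested genes alike.

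Among 16 tested ligands, 6 were called with RA, all higher. INHBA, which encodes an activin subunit, went with RA from a DMSO mean of 0.184 ± 0.129 CPM to 3.71 ± 3.43 (log2 change 4.30 ± 0.92, adjusted p = 0.00226). GDF15, a stress-responsive member of the TGF-beta superfamily, rose from 0.570 ± 0.0620 to 4.98 ± 0.510 CPM (3.10 ± 0.19, adjusted p = 7.65e-09), and stayed high in PB+RA at 3.42 ± 0.495. INHBE, another activin subunit, rose from 0.889 ± 0.123 to 7.33 ± 3.14 CPM in RA but stood at 0.855 ± 0.216 in PB+RA. Its interaction was −3.28 ± 0.44 (adjusted p = 0.000610). TGFB2 was higher in all 3 treated groups, by log2 changes of 1.65 ± 0.37 with RA, 1.27 ± 0.38 with PB and 2.03 ± 0.36 with PB+RA.

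Of 15 receptors and co-receptors, 2 were called with RA, both higher, and with PB 2 were higher and 2 lower. AMHR2, the type II receptor for anti-Müllerian hormone, averaged 4.36 ± 0.827 CPM in DMSO and rose to 15.9 ± 0.724 in PB and 30.1 ± 3.71 in PB+RA. ACVRL1, a type I receptor for BMP9 and BMP10, fell from 6.62 ± 1.06 to 2.55 ± 1.18 and 0.905 ± 0.392 CPM. Of the 6 signalling SMADs, SMAD3 rose with RA from 50.0 ± 4.67 to 139.6 ± 9.36 CPM (1.47 ± 0.07, adjusted p = 9.06e-10). SMAD9, of the BMP branch, fell with RA from 152 ± 12.4 to 101 ± 12.2 CPM (−0.60 ± 0.10, adjusted p = 0.000201). Both changes were also called with PB+RA (1.36 and −0.58), and the log2 changes of these genes with PB were 0.15 and −0.04.

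Of 7 extracellular antagonists, 1 was called higher and 2 lower with RA, and 1 higher and 3 lower with PB. FSTL3, a follistatin-like antagonist of activin, averaged 10.1 ± 1.10 CPM in DMSO and rose to 23.9 ± 4.28 in PB+RA, and BMPER, which binds BMPs outside the cell, fell from 2.03 ± 0.434 to 0.858 ± 0.368 in PB. Of 9 intracellular modulators, 3 were called with RA, all higher: PMEPA1, SKIL and TGIF1, which are known as negative regulators of TGF-beta signalling. PMEPA1 went from 24.3 ± 5.45 to 43.2 ± 6.95 CPM. Of 12 response genes, 5 were called higher and 1 lower with RA. THBS1 (log2 change 1.68 ± 0.35), CCN2 (1.68 ± 0.29) and TGFBI (1.38 ± 0.17), all known to respond to TGF-beta, were among those higher, as was the CDK inhibitor gene CDKN2B (0.70 ± 0.15), which rose further in PB+RA to 24.1 ± 3.84 CPM from 9.02 ± 0.878 in DMSO.

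**Figure D4:**
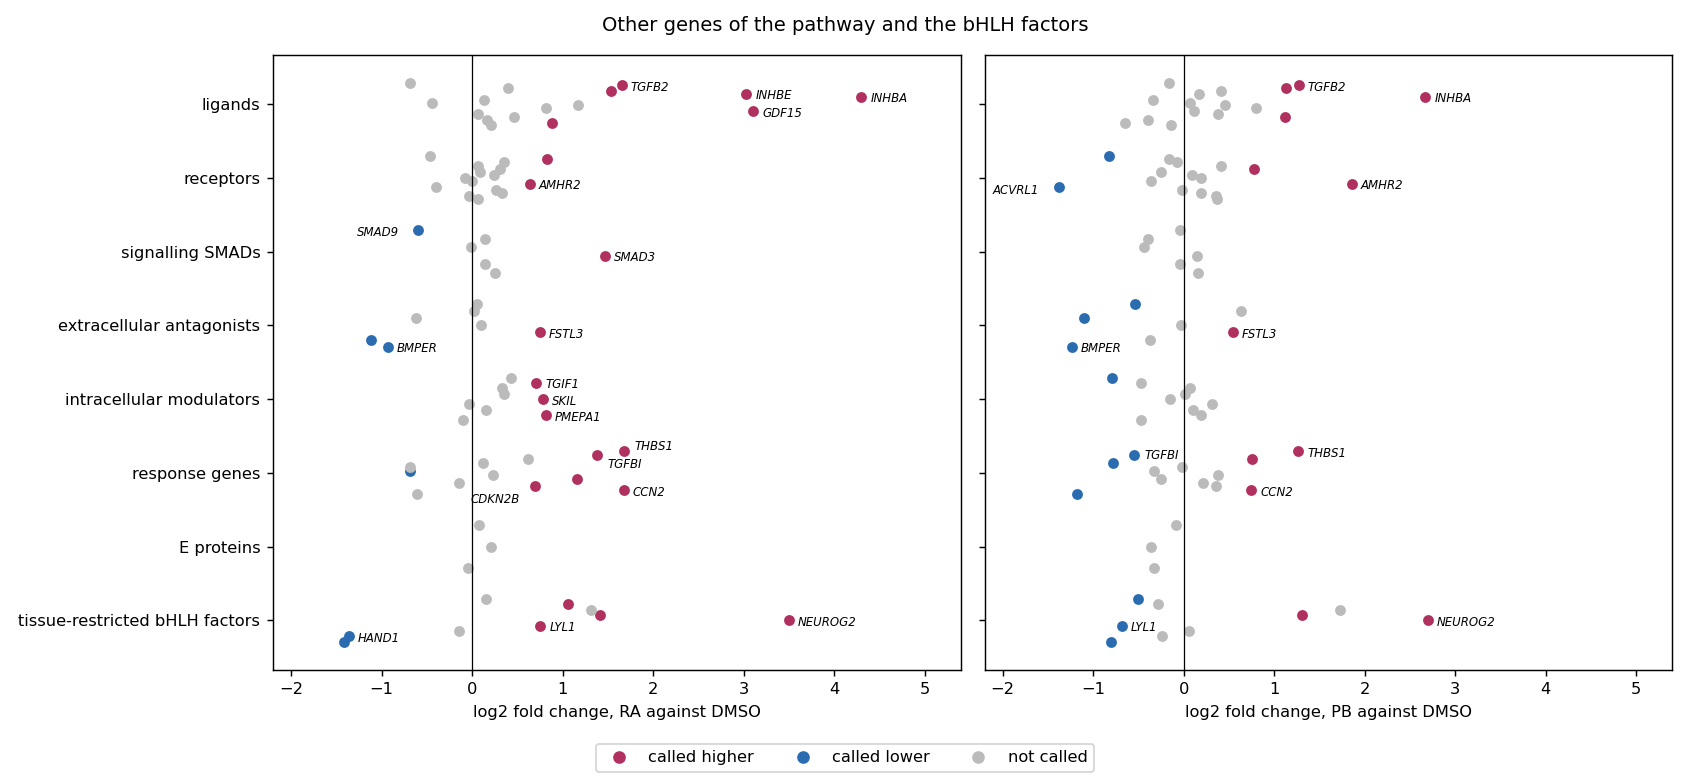
Log2 fold change (x axis) of the 77 tested genes of the pathway lists (y axis) with RA (left) and with PB (right). Points are genes, coloured where called, and some are labelled. INHBA lies furthest to the right with RA at 4.30, and SMAD3 and SMAD9 were called with RA.

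The partners of the ID proteins were examined last. The 3 E proteins were abundant in DMSO, at 308 ± 4.58 CPM for TCF3, 160.0 ± 17.3 for TCF4 and 143 ± 13.2 for TCF12. In PB+RA they stood at 224 ± 7.38, 117 ± 19.7 and 84.9 ± 9.33. All 3 were called lower against RA (−0.70, −0.55 and −0.73, background 14.1%). Against DMSO only TCF12 was called (−0.78 ± 0.10, adjusted p = 4.04e-06). Of 9 tested tissue-restricted bHLH factors, 4 were called higher and 2 lower with RA. HAND1, a factor of sympathetic precursors, was among the lower ones. It averaged 342 ± 40.4 CPM in DMSO and fell to 134 ± 26.2 in RA and 109.5 ± 10.4 in PB+RA. HAND2 was not called against DMSO with any treatment. It averaged 790 ± 28.4 CPM in DMSO, 720 ± 35.1 in RA and 785 ± 53.9 in PB+RA. NEUROG2, a proneural factor, held 3 counts or fewer in each DMSO library and rose from 0.570 ± 0.263 CPM in RA to 2.29 ± 1.43 in PB+RA (1.98 ± 0.48, adjusted p = 0.00238). The factor LYL1 was called higher with RA (0.75 ± 0.11) and lower with PB (−0.69 ± 0.12).

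Likeness across the 16 samples was measured as the root-mean-square distance between log2 CPM values centred on their means, among 10002 genes averaging at least 10 CPM. As a description, ID1 and SMAD7 had the same nearest gene, SERTAD1, at distances of 0.189 and 0.106. SMAD9 was the second nearest to ID2, at 0.190, after DEPTOR at 0.186. SAMHD1 was nearest to ID3 (0.125), SYNM to SMAD6 (0.169), AP3S1 to BAMBI (0.172), POLH to ID4 (0.310) and COL3A1, a fibroblast collagen gene, to BMP4 (0.710). The centred values of these members had a root mean square of 0.334 for ID1, 0.405 for ID2, 0.251 for ID3, 0.651 for ID4, 0.345 for SMAD6, 0.226 for SMAD7, 0.320 for BAMBI and 1.51 for BMP4.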

How the data were processed

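RNA was polyadenylated RNA of 16 cultures, made into strand-specific libraries. According to the methods and labels, the authors trimmed reads with Trim Galore 0.6.4, aligned them to hg19 with STAR 2.6.1d and took its read counts per gene. The deposited counts are unnormalised, and the deposited CPM, made by the authors, equal each count over its sample's total. The annotation release and the strand column are not given in the sources used here. The authors' DESeq2 1.32.0 fold changes and p-values were not used.

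Genes were tested in R 4.3.3 with edgeR 4.0.16 (filterByExpr, TMM factors 0.983 to 1.02, robust quasi-likelihood fit of all 16 samples, 1 coefficient per group). A call needed a Benjamini-Hochberg adjusted p below 0.05 over 15415 genes and an absolute log2 fold change above 0.5, and every adjusted p is from this test unless DESeq2 1.42.0 or limma 3.58.1 (limma-voom) is named. Members, pathway lists and motifs were chosen with earlier results of these data known. Up to 4 genes of each list could be named, those with the largest change among genes called against DMSO without overlap of the groups and averaging at least 1 CPM. Some genes that this rule names are not reported here. TCF3, TCF4, HAND2 and CERS1 fall outside this rule and were named after their values were seen. Samples with the same labelled replicate number deviated together (r from 0.330 to 0.573 in all 24 pairs). In the 72 pairs with different numbers r ran from −0.492 to 0.447, so the ranges overlapped in part. The replicate number was used as a block in alternative fits alone, and the main fit left any pairing out. The correction for GC content and length used splines with 5 degrees of freedom on GENCODE models (GRCh37), which gave a value for 95.2% of tested genes. Lengths and coordinates of genes are from the same models, and promoters are from RefSeq, where 9 members were matched.

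Tested on simulated data with 200 changed genes among 15415, the PB comparison recovered 59% of log2 changes of 0.6 and 78% of changes of 1, and the interaction recovered 35% and 65.5%. In the data far more genes were called with PB (16.9% higher, 11.3% lower). The simulation also held no deviation shared by replicate number, so recall in the data can differ from these values. A value of 0 was given an upper limit of 3 counts, which covers counting error alone. P-values measure the spread between platings of a single line.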

Additional observations from a re-analysis of the deposited data

Results flagged for a closer look

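The change with RA differed between cells with and without PB, by the test of the interaction, for ID1 (0.92 on the log2 scale, adjusted p = 0.0346), ID2 (0.63, adjusted p = 0.0255), SMAD6 (0.79, adjusted p = 0.0477) and SMAD7 (0.52, adjusted p = 0.0468).

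Among 40 groups of 4 values, 3 held a sample far from the other three by Dixon's criterion, which chance alone meets in about 1 of 20 groups. ID4 stood at 2.91 CPM in DMSO replicate 1, with the other DMSO libraries between 1.75 and 1.90. BMP7 was at 0 CPM in DMSO replicate 1 and at 0 CPM in PB+RA replicate 1, where the other libraries held 0.316 to 0.348 and 0.177 to 0.205 CPM.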

How the results depend on the processing

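Results that changed with the processing follow, and the cause was not tested except where the construction of the alternative gives it. The self-test recall, which holds for its simulated setting, and the counts above limit the interactions and the rare genes ID4, BMP4 and BMP7 most. The GC and length correction moved the median of all genes by −0.10 on the log2 scale with RA and by less elsewhere, so values under it are relative to that shift.

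The share of all tested genes was not computed for the altered thresholds that follow, so these counts have no background beside them. With no fold minimum, the members called went from 2 to 4 with PB, from 4 to 7 with RA, from 3 to 6 with PB+RA, from 0 to 4 against PB and from 2 to 5 against RA, and the other pathway genes from 33 to 51 with PB+RA and from 20 to 34 against RA. With a minimum of 1, members fell to 1 with each of PB, RA and PB+RA, and to 0 against RA and for the interaction (where edgeR gave 8 and 6 at an unadjusted p below 0.05 with no minimum, and DESeq2 called 2 and 4 at the minimum of 0.5), and the other pathway genes to 12, 16, 9 and 7 with PB, with RA, against PB and against RA, and from 2 to 1 for the interaction.

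The replicate block gave 1 member against PB in place of 0, and 7 pathway interactions in place of 2. Together with the GC and length correction it gave 4 members with PB, 1 against PB and 5 pathway interactions. Beyond BMP4, ID4 and these counts, the replicate block changed no call of a member. The GC and length correction and RLE size factors each gave 1 pathway interaction. With the GC and length correction ID1 was called lower with RA (−0.51). DESeq2 gave 1 member against PB, limma-voom 1 against RA, and fitting only the groups compared 1 in each. Without a filter on low counts, 2 members were called for the interaction (the adjusted p of ID1 was 0.0961 and that of SMAD6 0.105) and 1 other pathway gene, and BMP4 with RA lost its call (adjusted p = 0.0701), as with limma-voom (0.0868) and with only the groups compared (0.0857). The fall of ID3 with RA lost its call under a stricter filter (−0.4993).

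Replicates 1 and 2 alone gave 1 member with PB, 0 against RA and 0 for the interaction (adjusted p of 0.206 for ID1, 0.133 for ID2, 0.598 for SMAD6 and 0.273 for SMAD7), with fewer libraries in the fit, and SMAD6 with RA (0.218) and BAMBI with PB (0.0599) also lost their calls there. Replicates 3 and 4 alone gave 2 members against PB (BMP4 and BMP7) and 9 pathway interactions, and BAMBI with PB+RA fell under the fold minimum (−0.45). Leaving out each library in turn, the members called ranged from 2 to 3 with PB, 3 to 5 with RA, 2 to 4 with PB+RA, 0 to 1 against PB, 1 to 4 against RA and 0 to 4 for the interaction, and other pathway genes from 16 to 22, 25 to 29, 32 to 41, 18 to 21, 17 to 24 and 1 to 3.

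Reversals of sign from the main fit touched only values that were not called in it. Against PB, ID4 (0.01) went to −0.028 with limma-voom and −0.27 in replicates 1 and 2, SMAD6 (0.02) to −0.087 with the GC and length correction, −0.094 with that correction and the replicate block and −0.063 in replicates 1 and 2, and BAMBI (0.14) to −0.16 in replicates 1 and 2. BMP4 with PB, which was called lower in the fit with the replicate block, went to 0.35 in replicates 1 and 2, and its interaction to 0.14 in replicates 3 and 4. Leaving out a library, ID1 with PB+RA ranged from −0.024 to 0.23, ID4 against PB from −0.086 to 0.14, SMAD6 against PB from −0.026 to 0.082 and the BMP4 interaction from −0.69 to 0.12. Dividing by the longest transcript in place of all exons moved 20 levels per kilobase, that of ID3 in DMSO to 145 CPM.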

Other observations

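Replicate 2 held the lowest value of its group for 9 of the 10 members in DMSO and for 8 of the 10 in RA, against 1 of 10 in PB and 3 of 10 in PB+RA. Replicates 1 to 4 of DMSO held the highest value for 5, 0, 3 and 2 members.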
